A study of Mus musculus with 15 samples.

Results

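The epididymis of Plag1 knockout mice was compared with that of heterozygous mice, using 5 whole-organ RNA-seq libraries from knockouts (KO) and 5 from heterozygotes (HET) out of 15 libraries in the series. The other 5 came from wild-type mice (WT). The comparison was chosen by genotype label alone, and it covered the 19388 of 41591 gene IDs with enough counts to be tested. Every mouse was 7 weeks old, each library carries the number of 1 animal, and the strain label of all of them reads Brown Swiss, which is the name of a cattle breed. The labels describe neither the Plag1 allele nor the part of the gene it disrupts; KO animals have no intact copy and HET animals keep 1. Total counts were 25285461 to 41957608 in KO libraries, 23617560 to 33804140 in HET libraries and 20304440 to 27816792 in WT libraries. Adjusted p-values are from edgeR's quasi-likelihood test, adjusted over the 19388 genes, and a gene under 0.05 is called. Values written as 0.64 ± 0.09 are log2 fold changes of KO over HET with their standard error, and levels are counts scaled to library size (CPM), given for KO-694, KO-695, KO-696, KO-738 and KO-739 and for HET-692, HET-693, HET-715, HET-718 and HET-735 in that order.

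Plag1 encodes a zinc finger transcription factor of the PLAG family, which binds GC-rich promoters and is known as an activator of growth genes such as Igf2 and as an oncogene of salivary gland adenomas. The epididymis is a long coiled duct, derived from the Wolffian duct, in which sperm mature and are stored. Its epithelium of principal, clear and basal cells secretes defensins, lipocalins and other proteins and adjusts water, salts and acidity, and it is wrapped in smooth muscle and in connective tissue with vessels, nerves and macrophages. The comparison addresses how the organ's transcripts differ between mice with no intact Plag1 gene and mice with 1.

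Plag1 transcript was present in both groups. Plag1 (NCBI Gene 56711; GRCm38.p6, chromosome 4, 3898769 to 3938430) had 8.17, 7.00, 7.90, 9.38 and 9.17 CPM in KO libraries, against 9.63, 10.6, 10.5, 8.12 and 11.8 CPM in HET libraries. The groups overlapped, because HET-718 lay below KO-738 and KO-739. The log2 fold change was -0.29 ± 0.10 with an adjusted p of 0.128, so the targeted gene was not called, and KO averaged 82.0% of HET. These are counts over the whole gene, 211 to 342 per KO library and 223 to 327 per HET library, and since the disrupted part is not stated they do not check the labels.

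Of the 19388 genes tested, 381 were called (1.97%): 313 were higher in KO (1.61%) and 68 were lower in KO (0.351%). Most of the genes that rose, 307 of 313, were protein coding. Among the 50 gene lists described below, those with the most rises were endothelium, fibroblasts and collagen, and matrix proteases. Of the 68 that fell, 42 were protein coding, 7 were pseudogenes and 19 were of other kinds. The median size of the change was 0.54 among the rises and 0.48 among the falls on the log2 scale, and 29 rises and 7 falls exceeded 2-fold. The unadjusted p was under 0.05 for 4019 genes (20.7%). All 5 KO libraries lay above all 5 HET libraries for 422 genes (2.18%) and below them for 274 (1.41%).

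The number of calls rests on single libraries and on the choice of test. In a fit of the 10 KO and HET libraries alone, edgeR called 0 genes, with a smallest adjusted p of 0.0815 and 3432 genes at an unadjusted p under 0.05, whereas DESeq2 called 1242 genes in the 15 libraries. Without HET-735, HET-715, KO-696 or HET-693 the test called 0, 3, 5 or 6 genes, and without HET-718 it called 31. Without KO-695, KO-739 or KO-694 it called 154, 172 or 227, and without HET-692 or KO-738 it called 757 or 2443. In each of the 15 fits without 1 library, all 381 genes kept their direction. These fits reuse the libraries by which the genes were called, so a kept direction is no separate check of the calls. A call named below is a call in the fit of the 15 libraries, where 1.61% of all genes tested rose and 0.351% fell. The gene lists below were chosen with earlier results of these data known and were not tested as sets. A share of a list that was called, set beside the share of all genes, is therefore a description and no test of enrichment.

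**Figure D1:**
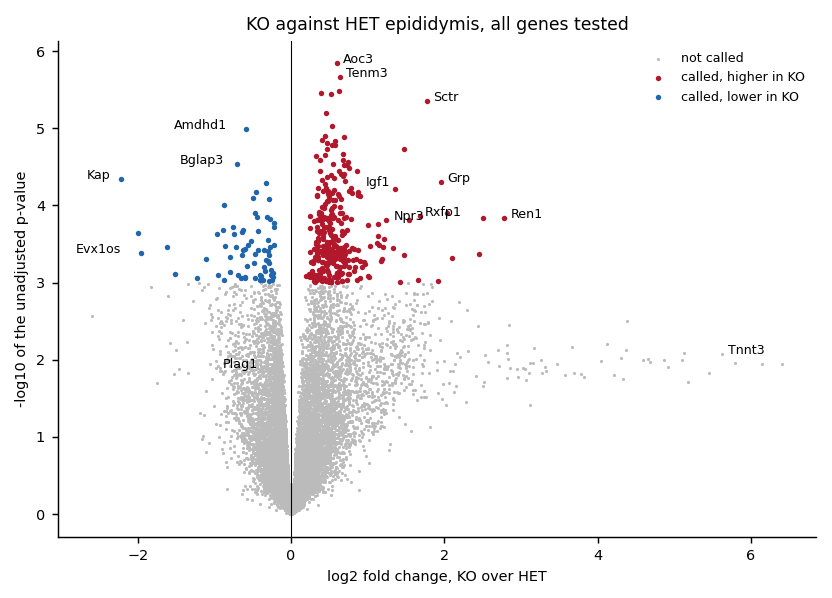
Each point is 1 of the 19388 genes, with the log2 fold change of KO over HET on the horizontal axis and the unadjusted p as -log10 on the vertical axis; red points were called higher and blue points lower in KO. The 313 rises have a median of 0.54, and Plag1 lies among the genes not called at -0.29.

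The KO libraries varied more among themselves than the HET libraries, and KO-738 lay with HET. On the first principal component of the KO and HET libraries, which held 33.8% of their variance, KO-694, KO-695, KO-696 and KO-739 lay at 19.6, 40.3, 42.7 and 21.1, while KO-738 lay at -27.4, inside the HET range of -28.5 to 0.1. The level in KO-738 was nearer to the HET mean than to the mean of the other KO libraries in 216 of the 313 genes that rose and in 32 of the 68 that fell, beside 12317 of all 19388 genes tested. KO-739 stood alone on the second component (23.5% of variance) at -64.8, against -0.6 to 18.8 in the other KO libraries and -2.1 to 14.7 in HET. The share of counts on nuclear ribosomal RNA genes was 1.289% in KO-738, 1.296% in HET-693 and at most 0.509% in any other library. Pairs of libraries of 1 genotype differed by a chi-square per degree of freedom of 20.28 to 94.99 in KO, 5.58 to 31.99 in HET and 6.26 to 19.62 in WT, so no library repeated another.

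Among genes of at least 1 CPM with ordinary names, 5 shared the smallest adjusted p of 0.0138, and all 5 rose. Tenm3, a teneurin that helps nerve cells to find their partners, had 12.6, 12.2, 12.9, 10 and 12.3 CPM in KO libraries, against 8.45, 7.13, 8.43, 7.39 and 7.06 CPM in HET libraries. Even KO-738, the lowest KO library, exceeded the highest HET library, and the log2 fold change was 0.64 ± 0.09. Aoc3, an amine oxidase of vessel walls that takes part in the adhesion of leukocytes, had 22.1, 28.2, 23.7, 22.7 and 26.1 CPM in KO libraries, against 18.2, 14.3, 14.4, 17.6 and 16.4 CPM in HET libraries, again without overlap (0.60 ± 0.08). The others were Pxdn, a peroxidase that crosslinks type IV collagen (0.62 ± 0.09), the chemokine gene Cxcl12 (0.39 ± 0.06) and Sh3pxd2a, a scaffold of invasive actin structures (0.52 ± 0.08). Tenm3, Aoc3 and Cxcl12 were each called in 14 of the 15 fits without 1 library, the exception being the fit without HET-735, and each had an adjusted p of 0.0815 in the fit of the KO and HET libraries alone. Other calls named below held in far fewer of the 15 fits. Pipox was called in 1, and Art5, Piwil2, Igfbp3, Atp13a4 and Tekt2 in 2 each. Col4a2, Flt4, Efcab9, Cadm2 and Mcoln3 were called in 3 each. Further genes with a low p were Fbxo32, a ubiquitin ligase of muscle wasting (0.45 ± 0.07), Rflnb, a regulator of the actin crosslinker filamin (0.53 ± 0.08), the cytoskeletal scaffold gene Kank2 (0.44 ± 0.07) and the creatine transporter gene Slc6a8 (0.40 ± 0.07).

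Promoters of 3 genes that rose are shown because they hold letters of the PLAG1 recognition motif, searched as GAGGC or GGGGC followed after 6 to 8 bases by GGG, on both strands and with overlaps allowed. They are RefSeq sequences of build GRCm38.p6 from 250 bases before to 50 bases after the transcription start, on the gene's own strand and 5′ to 3′, with matches in capitals. The genes were picked for display after their values and matches were seen, from a longer set of looked-up names in which some, such as Tenm3 and Hoxa5, had no match. The windows are chr9:71215539-71215838 (plus strand) for Aldh1a2, chr16:22163250-22163549 (minus strand) for Igf2bp2 and chr11:76027733-76028032 (minus strand) for Rflnb.
Aldh1a2: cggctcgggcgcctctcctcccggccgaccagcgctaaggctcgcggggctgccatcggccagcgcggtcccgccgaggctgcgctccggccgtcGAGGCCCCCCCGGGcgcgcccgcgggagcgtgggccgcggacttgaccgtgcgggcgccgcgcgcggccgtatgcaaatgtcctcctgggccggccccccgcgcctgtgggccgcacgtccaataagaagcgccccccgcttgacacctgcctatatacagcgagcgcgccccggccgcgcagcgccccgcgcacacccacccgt
Igf2bp2: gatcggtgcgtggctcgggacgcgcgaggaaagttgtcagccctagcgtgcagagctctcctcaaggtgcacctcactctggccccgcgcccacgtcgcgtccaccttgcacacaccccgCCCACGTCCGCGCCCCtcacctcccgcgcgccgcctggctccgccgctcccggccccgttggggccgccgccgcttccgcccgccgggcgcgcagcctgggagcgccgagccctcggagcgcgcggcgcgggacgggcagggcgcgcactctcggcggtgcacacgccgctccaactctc
Rflnb: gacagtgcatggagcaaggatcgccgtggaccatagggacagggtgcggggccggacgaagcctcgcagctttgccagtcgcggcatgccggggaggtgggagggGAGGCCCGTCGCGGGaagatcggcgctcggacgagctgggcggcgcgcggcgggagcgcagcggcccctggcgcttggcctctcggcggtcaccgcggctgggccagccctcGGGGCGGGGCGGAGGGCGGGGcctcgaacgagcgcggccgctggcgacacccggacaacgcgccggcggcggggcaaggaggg
Aldh1a2 and Igf2bp2 hold 1 match each and Rflnb holds 4. A match is no binding site, and 22.7% of all 32851 promoters of this length in the RefSeq table hold one. A match was held by 103 of the 219 rises with an entry (47.0%) and 13 of the 43 falls with one (30.2%), beside 4999 of the 14099 tested genes with one (35.5%). The median GC content of these promoters was 60.7%, 54.3% and 59.0% in the same order. Because under 80% of the genes in each set had an entry, a comparison of these shares is void and nothing is read from them.

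Endothelial genes were higher in KO. Of 16 genes of blood and lymphatic endothelium, 9 rose and 0 fell, with a median log2 fold change of 0.66; over all genes tested the median was -0.01 and 1.61% rose. Cdh5, the cadherin of endothelial junctions, had 20.6, 25.0, 27.1, 20.4 and 29.2 CPM in KO libraries, against 18.3, 12.2, 14.4, 16.9 and 14.8 CPM in HET libraries (0.68 ± 0.11, adjusted p = 0.0208). The groups did not overlap for Cdh5, for the clotting protein gene Vwf (0.54 ± 0.09) or for Mmrn2, a matrix protein gene of vessels (0.70 ± 0.11), and the same held for 8 of the 16 genes in all. All 5 KO libraries lay above all 5 HET libraries for 2.18% of all genes tested. Robo4, a guidance receptor of vessels, rose by 0.56 ± 0.12, the adhesion gene Pecam1 by 0.69 ± 0.15 and the receptor gene Tie1 by 0.70 ± 0.16. The 3 receptors of vascular endothelial growth factors rose: Kdr by 0.65 ± 0.14, Flt1 by 0.66 ± 0.15 and Flt4, the receptor of lymphatic vessels, by 0.67 ± 0.17. On the scale of mean log2 CPM minus the HET mean, the 16 genes stood at 0.22 in KO-738 and at 0.44 to 0.74 in the other KO libraries, against -0.15 to 0.16 in HET. Without KO-738 12 genes were called with a median of 0.71, and without KO-739 3 were called with a median of 0.54. Over all genes tested, 1546 of 19539 were called higher without KO-738 and 145 of 19485 without KO-739. In whole organs, more cells of a type and more RNA per cell cannot be told apart, and likewise fewer cells and less RNA per cell.

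Connective tissue genes were higher as well. Of 27 fibroblast and collagen genes, 15 rose and 0 fell, with a median of 0.63. Col15a1, a collagen at the basement membranes of vessels and muscle, had 22.1, 30.3, 29.7, 16.8 and 24.8 CPM in KO libraries, against 15.9, 12.6, 12.0, 16.2 and 11.5 CPM in HET libraries (0.86 ± 0.15, adjusted p = 0.0218). KO-738 was the lowest KO library and stood just above the highest HET library. Col12a1, a collagen along the fibrils, had 100, 113, 123, 71.5 and 133 CPM in KO libraries, against 75.8, 60.5, 65.8, 60.2 and 62.5 CPM in HET libraries (0.74 ± 0.13), with KO-738 inside the HET range. The surface glycoprotein gene Thy1 rose by 0.63 ± 0.11, the fibronectin gene Fn1 by 0.63 ± 0.12 and the matrix protein gene Sparc by 0.54 ± 0.11. Of the defining fibroblast markers, Col1a2 (0.75) and Col3a1 (0.74) rose, while Col1a1 (0.76), Lum (1.19), Dcn (0.49) and Pdgfra (0.08) did not pass. The list stood at 0.08 in KO-738 and at 0.48 to 0.81 in the other KO libraries, against -0.12 to 0.23 in HET. Without KO-738 23 of the 27 genes were called with a median of 0.72, and without KO-739 8 were called with a median of 0.57. Over all genes these fits called 1546 of 19539 and 145 of 19485 higher.

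Grouped by family, a grouping made after the values were seen, 19 of 40 collagen genes rose and 0 fell. Their values ran from -0.63 to 1.79. All KO libraries lay above all HET libraries for 6 of them and below for 1, beside 2.18% and 1.41% of all genes tested. Some of the 40, such as Col12a1 and Col15a1, are counted in the list above as well. The 6 chains of type IV collagen, the network of basement membranes, all rose: Col4a1 by 0.65 ± 0.14, Col4a2 by 0.65 ± 0.15, Col4a3 by 0.25 ± 0.06, Col4a4 by 0.32 ± 0.05, Col4a5 by 0.54 ± 0.10 and Col4a6 by 0.51 ± 0.10. Col4a4 had 82.5, 75.1, 80.5, 67.5 and 79.8 CPM in KO libraries, against 65.1, 59.6, 60.6, 62.6 and 60.3 CPM in HET libraries, which did not overlap. Only 2 of the 6 chains, Col4a3 and Col4a4, were without overlap. For Col4a1, Col4a2, Col4a5 and Col4a6, KO-738 lay inside the HET range. Col5a3, a chain of fibril-forming collagen, rose by 1.17 ± 0.27. Of 11 genes of laminins, which form the other network of basement membranes, 4 rose, including Lama4 (0.41 ± 0.09) and Lamb1 (0.42 ± 0.09). Among 30 genes of ADAM proteases, matrix metalloproteases and their inhibitors, 7 rose and 0 fell, with a median of 0.38. The gelatinase gene Mmp2 rose by 0.88 ± 0.16, its inhibitor gene Timp2 by 0.54 ± 0.11, and the membrane protease genes Adam12 and Adam19 by 1.14 ± 0.23 and 0.56 ± 0.12. This list stood at -0.01 in KO-738 and at 0.43 to 0.65 in the other KO libraries, against -0.11 to 0.20 in HET. Without KO-738 17 of the 30 genes were called higher, and without KO-739 1. Over all genes these fits called 1546 of 19539 and 145 of 19485 higher.

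**Figure D2:**
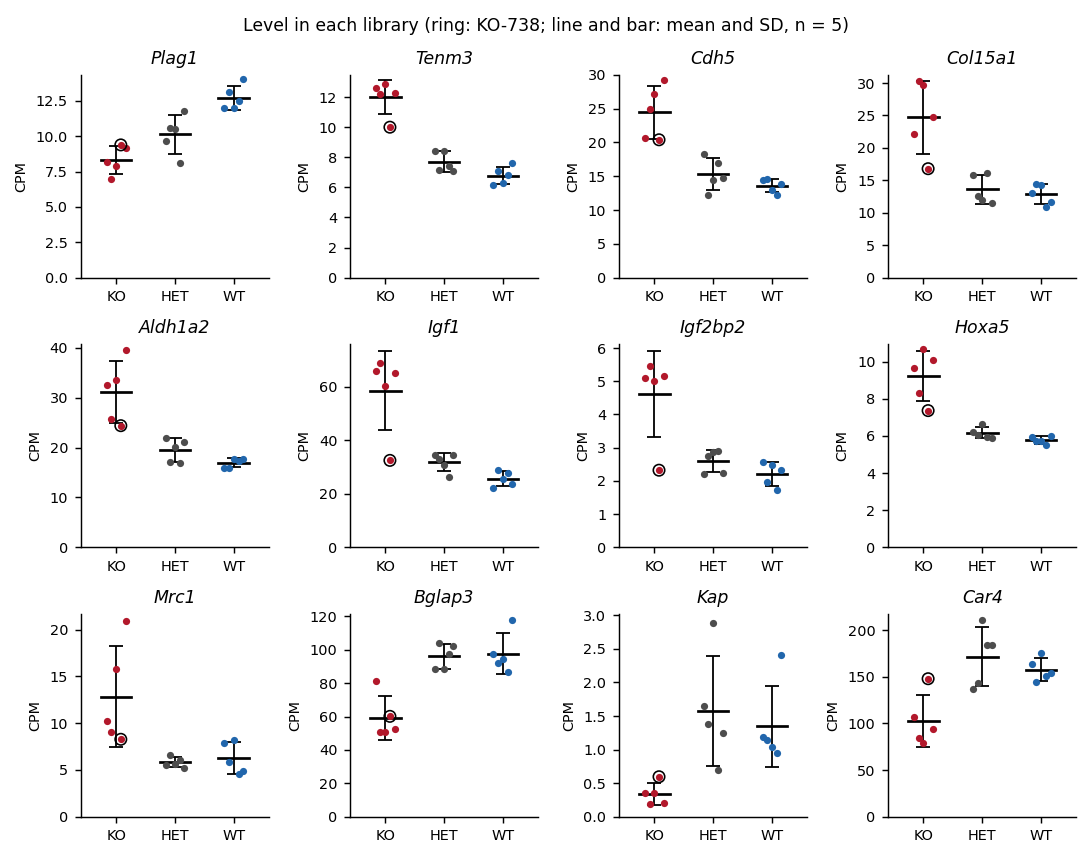
Each panel shows the CPM of 1 gene in every library, with KO left of HET and WT last; horizontal lines are means, bars are SD (n = 5) and the ring marks KO-738. Tenm3, Cdh5, Col15a1, Aldh1a2, Hoxa5 and Mrc1 show all KO libraries above all HET libraries, Igf1 and Igf2bp2 show KO-738 within the HET range at 32.5 and 2.32 CPM, and Bglap3 and Kap show all KO libraries below all HET libraries.

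Macrophage genes rose in part. Of 17, 3 rose and 0 fell, with a median of 0.36. Mrc1, the mannose receptor of tissue macrophages, had 10.2, 9.09, 15.8, 8.28 and 20.9 CPM in KO libraries, against 5.56, 6.59, 5.68, 6.08 and 5.21 CPM in HET libraries (1.14 ± 0.24, adjusted p = 0.031). All KO libraries lay above all HET libraries, and KO-696 and KO-739 were the highest. Csf1r, the receptor of a macrophage growth factor, rose by 0.47 ± 0.11 and the pore-forming protein gene Mpeg1 by 0.41 ± 0.10. Stab1, a scavenger receptor of macrophages and sinusoidal vessels named after its value was seen, rose by 0.64 ± 0.15. The list stood at -0.11 in KO-738 and at 0.47 to 0.63 in the other KO libraries, against -0.08 to 0.07 in HET. Without KO-738 15 of the 17 genes were called, and without KO-739 1 was. Over all genes these fits called 1546 of 19539 and 145 of 19485 higher. Of 24 complement and chemokine genes 2 rose, Cxcl12 and the complement gene C2 (2.04 ± 0.40). C2 had 3.76, 0.784, 3.31, 2.07 and 3.47 CPM in KO libraries, against 0.618, 0.688, 0.564, 0.801 and 0.560 CPM in HET libraries, and KO-695 alone lay in the HET range; its locus overlaps a neighbouring complement gene, which makes the counts uncertain. The peptide transporter gene Tap1 (adjusted p = 0.047) was the 1 called gene of 16 of antigen presentation, and the antiviral gene Rsad2 (0.87 ± 0.16) the 1 called gene of 25 of the interferon response.

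Smooth muscle and mesothelium each had 2 rises. Of 15 smooth muscle genes, the actin-binding genes Synpo2 (0.47 ± 0.11) and Lmod1 (0.30 ± 0.07) rose, with a list median of 0.31, while the contractile genes Acta2 (0.30 ± 0.10, adjusted p = 0.108) and Myh11 (0.43 ± 0.12, adjusted p = 0.0694) did not pass. Synpo2 had 87.3, 80.5, 78.7, 91.2 and 104 CPM in KO libraries, against 75.3, 61.2, 46.1, 66.4 and 69.1 CPM in HET libraries. Set against WT, Synpo2 and Lmod1 had log2 fold changes of 0.10 and 0.12 (adjusted p = 0.641 and 0.345), and the list stood at 0.25 to 0.48 in KO, -0.26 to 0.28 in HET and 0.07 to 0.40 in WT. Tagln, another smooth muscle marker, held at most 0.56 CPM in KO and 0.353 CPM in HET, although Acta2 reached 1060 CPM in both. Of 9 mesothelial genes Wt1, a transcription factor gene (1.21 ± 0.26), and Aldh1a2 rose, and the defining markers Msln, Upk3b and Lrrn4 had values of 0.65, 0.15 and 0.34 that did not pass.

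**Figure D3:**
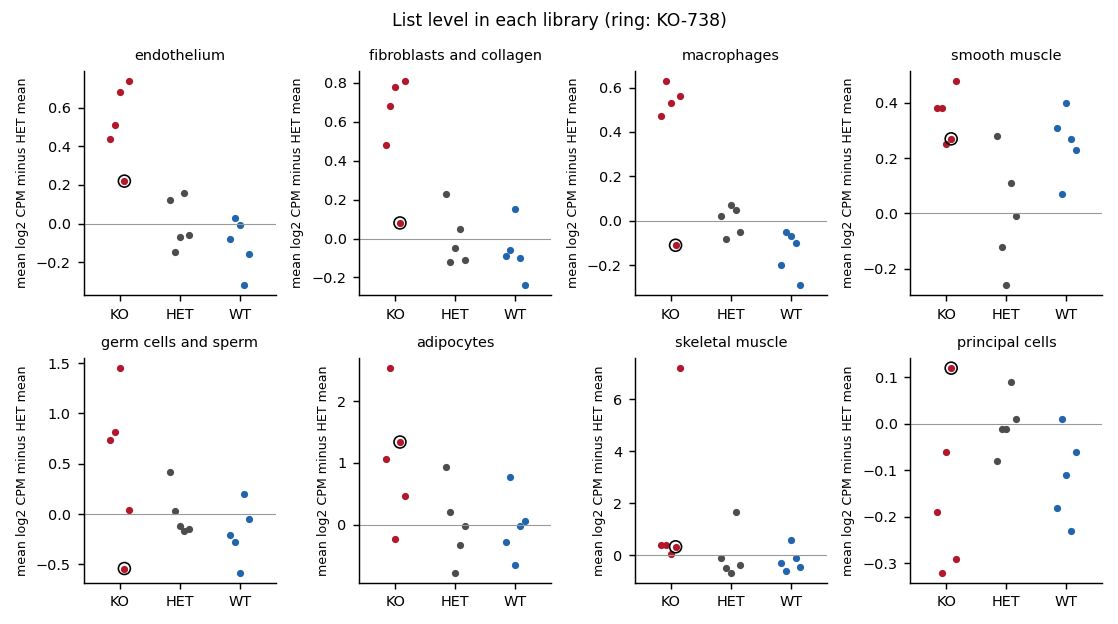
Each point is the mean log2 CPM of a gene list in 1 library minus the HET mean, with KO left of HET and WT last; the ring marks KO-738. Endothelium lies above all HET libraries in 5 of 5 KO libraries, fibroblasts and macrophages in 4 of 5 and germ cells in 3 of 5, and skeletal muscle stands at 7.19 in KO-739.

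Genes of insulin-like growth factors rose in part, led by Igf1. Of 18 genes of this system 4 rose and 0 fell, with a median of 0.16. Igf1, a circulating and local growth factor, had 65.8, 68.9, 60.5, 32.5 and 65.2 CPM in KO libraries, against 34.5, 33.0, 30.9, 26.2 and 34.7 CPM in HET libraries (0.88 ± 0.16, adjusted p = 0.0225). KO-738 lay among the HET libraries and the other 4 KO libraries lay above them; without KO-738 the value was 1.04. The genes of the binding proteins Igfbp4, Igfbp7 and Igfbp3 rose by 0.54 ± 0.11, 0.41 ± 0.09 and 0.40 ± 0.10. Igf2, which PLAG1 is known to activate, had 10.6, 9.51, 10.1, 17.4 and 17.1 CPM in KO libraries, against 15.7, 13.0, 16.6, 15.4 and 14.5 CPM in HET libraries (-0.22 ± 0.16, adjusted p = 0.462), and its value was 0.17 among the animals numbered 700 and above. Of 7 genes of the PLAG family and its partners 1 rose, Igf2bp2, whose product binds mRNAs including that of Igf2. Igf2bp2 had 5.11, 5.46, 5.02, 2.32 and 5.17 CPM in KO libraries, against 2.21, 2.75, 2.86, 2.91 and 2.24 CPM in HET libraries (0.83 ± 0.20, adjusted p = 0.0404), with KO-738 inside the HET range.

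Of 17 imprinted growth-control genes 2 rose, Peg3 (0.39 ± 0.08) and Ndn (0.54 ± 0.11), both expressed from the paternal copy. Of 14 genes beside Plag1 on chromosome 4, 1 rose, the enkephalin precursor gene Penk at 4133536 to 4138815. Penk had 198, 173, 192, 169 and 213 CPM in KO libraries, against 161, 133, 140, 137 and 160 CPM in HET libraries (0.37 ± 0.08, adjusted p = 0.0257), which did not overlap.

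Among signals known from the development of the duct, a few members of each list rose, where 1.61% of all genes tested rose. Aldh1a2, which makes retinoic acid, had 32.5, 25.7, 33.6, 24.4 and 39.6 CPM in KO libraries, against 22.0, 17.2, 20.2, 16.9 and 21.2 CPM in HET libraries (0.68 ± 0.12, adjusted p = 0.0208). The groups did not overlap, and Aldh1a2 was the 1 called gene of 19 in the retinoid pathway. Fgf10, a growth factor from mesenchyme to epithelium, rose by 0.64 ± 0.15 and was the 1 called gene of 19 in the FGF list. Of 32 BMP and TGF-beta genes 3 rose, the ligand gene Bmp6 (0.75 ± 0.13) and the receptor genes Tgfbr3 (0.36 ± 0.07) and Tgfbr2 (0.52 ± 0.10). Bmper, which encodes a secreted BMP-binding protein, rose by 1.19 ± 0.26. Of 44 WNT genes 4 rose, with a median of 0.20: the ligand gene Wnt6 (0.49 ± 0.12), the receptor genes Fzd7 (0.52 ± 0.11) and Fzd1 (0.27 ± 0.07) and the secreted antagonist gene Sfrp1 (0.55 ± 0.12). Of 35 axon guidance genes 4 rose, Tenm3, the receptor gene Plxnd1 (0.51 ± 0.11) and the ligand genes Ntn1 (0.27 ± 0.07) and Slit3 (0.61 ± 0.15). Scube2, which helps to release Hedgehog ligands, rose by 1.36 ± 0.25, with KO-738 inside the HET range at 1.22 CPM.

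Single transcription factor genes moved both ways, where 1.61% of all genes tested rose and 0.351% fell. Of 22 factors of the Wolffian duct 2 rose, Wt1 and Osr1 (0.67 ± 0.17), and Gata6 rose by 1.33 ± 0.30. Hand2 (0.88 ± 0.20), Meis2 (0.55 ± 0.09) and Foxd2 (1.12 ± 0.24), named after their values were seen, rose too. Of 35 HOX and neighbouring genes, which set position along the body, 1 rose and 2 fell. Hoxa5 had 9.69, 8.31, 10.7, 7.37 and 10.1 CPM in KO libraries, against 6.24, 6.08, 6.67, 5.97 and 5.90 CPM in HET libraries (0.58 ± 0.09, adjusted p = 0.0198). Hoxb9 had 71.6, 63.8, 53.6, 68.1 and 59.9 CPM in KO libraries, against 77.4, 85.6, 76.1, 74.2 and 77.7 CPM in HET libraries (-0.30 ± 0.07, adjusted p = 0.0373). Neither gene's groups overlapped. Evx1os, an RNA antisense to Evx1 beside the Hoxa cluster, had 1 to 4 counts per KO library and 4 to 11 per HET library (-1.96 ± 0.44, adjusted p = 0.0348), and Evx1 had 0 to 5 counts per KO library and 1 to 8 per HET library (-1.75 ± 0.68, adjusted p = 0.154). These are few reads, and since the strand setting of the counting is not given in the sources used here, reads of such a pair cannot be told apart.

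Among the largest rises was Ren1, the renin gene, which had 1.98, 1.82, 4.02, 0.314 and 5.71 CPM in KO libraries, against 0.265, 0.652, 0.318, 0.473 and 0.301 CPM in HET libraries (2.78 ± 0.55, adjusted p = 0.0257). KO-738 lay at the level of HET. Some mouse strains carry a near copy of this gene, so its counts are uncertain, and it was the 1 called gene of 9 in the renin-angiotensin list. Npr3, which clears natriuretic peptides from the circulation, had 8.10, 13.9, 6.82, 7.84 and 19.3 CPM in KO libraries, against 5.80, 4.53, 4.37, 4.44 and 4.48 CPM in HET libraries (1.24 ± 0.25, adjusted p = 0.0257). The signalling receptors of these peptides, Npr1 (0.38 ± 0.09) and Npr2 (0.40 ± 0.08), rose too. None of the 3 genes, a family gathered after the values were seen, overlapped between the groups. All KO libraries lay above all HET libraries for 2.18% of all genes tested. Npr1 separated narrowly, with 12.2 CPM in KO-738 against 11.9 CPM in HET-692, and was called in 4 of the 15 fits without 1 library. Rxfp1, a receptor of relaxin, had 1.16, 0.895, 1.57, 0.533 and 3.11 CPM in KO libraries, against 0.324, 0.253, 0.247, 0.218 and 0.215 CPM in HET libraries, without overlap (adjusted p = 0.0257). Grp, the gene of gastrin-releasing peptide, rose by 1.96 ± 0.35. Below 1 CPM and named after their values were seen, the secretin receptor gene Sctr had 19 to 42 counts per KO library and 4 to 10 per HET library (1.77 ± 0.26), and the growth factor gene Gdf5 had 17 to 41 and 6 to 11 counts (1.47 ± 0.25).

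The remaining large rises were of mixed kinds. Ctla2a, a cysteine protease inhibitor gene with a close copy, had 81.1, 73.1, 69.4, 22.1 and 236 CPM in KO libraries, against 20.6, 26.6, 19.5, 26.2 and 19.2 CPM in HET libraries (2.10 ± 0.46). KO-738 was within HET, and without KO-739 the value was 1.45. The phosphatase gene Dusp13 (2.45 ± 0.55) and the ADP-ribosyltransferase gene Art5 (1.91 ± 0.47) had their highest levels, 3.62 and 1.94 CPM, in KO-739, the library with high skeletal muscle genes. In KO-694, KO-695, KO-696 and KO-738, Dusp13 had 0.969, 1.29, 2.47 and 0.251 CPM, against at most 0.471 CPM in HET. Art5 had 0.814, 0.811, 1.06 and 0.376 CPM in the same libraries, against at most 0.442 CPM in HET. Without KO-739 the log2 fold changes were 2.00 for Dusp13 and 1.53 for Art5. Efcab9, a part of the sperm calcium channel CatSper, rose by 1.42 ± 0.35, with 1.62 CPM in KO-696, 1.18 CPM in KO-695 and 1.16 CPM in KO-694, the libraries with the highest germ cell levels.

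Genes that fell were single genes of many kinds. Kap, an androgen-regulated gene known from the kidney, had 0.349, 0.196, 0.347, 0.596 and 0.209 CPM in KO libraries, against 1.65, 1.38, 2.89, 0.692 and 1.25 CPM in HET libraries (-2.21 ± 0.40, adjusted p = 0.0223). It was low throughout, with 7 to 19 counts per KO library and 19 to 82 per HET library, and the groups did not overlap in CPM. Bglap3, of the osteocalcin gene family, had 81.2, 50.9, 50.8, 60.1 and 52.3 CPM in KO libraries, against 88.3, 104, 88.2, 97.2 and 102 CPM in HET libraries (-0.70 ± 0.12, adjusted p = 0.0208). It has near copies next to it, which makes its counts uncertain. Amdhd1, an enzyme gene of histidine breakdown, had 6.12, 6.13, 5.82, 7.31 and 6.10 CPM in KO libraries, against 8.95, 9.56, 10.9, 8.09 and 9.73 CPM in HET libraries (-0.59 ± 0.09, adjusted p = 0.0198), also without overlap. Falls were also seen in the lysosomal ion channel gene Mcoln3 (-0.80 ± 0.18), the glucuronidation enzyme gene Ugt1a1, which shares exons with its neighbours (-0.86 ± 0.19), Pipox, an enzyme gene of lysine breakdown (-0.61 ± 0.15), the germ line gene Piwil2 (-0.65 ± 0.16) and the adhesion gene Cadm2 (-0.69 ± 0.17).

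Among 25 genes of fluid and solute transport 2 fell and 1 rose. Car4, a carbonic anhydrase on the cell surface, had 107, 84.7, 78.7, 148 and 93.6 CPM in KO libraries, against 137, 143, 211, 184 and 184 CPM in HET libraries (-0.75 ± 0.16, adjusted p = 0.0302). KO-738 lay inside the HET range and the other KO libraries below it. Slc15a2, which takes up short peptides, had 37.9, 47.2, 43.3, 41.9 and 49.3 CPM in KO libraries, against 47.7, 77.0, 62.5, 74.0 and 81.3 CPM in HET libraries (-0.64 ± 0.14, adjusted p = 0.0351). The water channel gene Aqp1, known from endothelium and efferent ducts, had 71.6, 102, 84.5, 72.9 and 80.6 CPM in KO libraries, against 63.7, 52.3, 46.3, 53.3 and 57.5 CPM in HET libraries (0.59 ± 0.13, adjusted p = 0.0344), without overlap.

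The falls with the lowest p included Skap1 (-0.32 ± 0.06), the actin regulator gene Baiap2l1 (-0.29 ± 0.06), the DNA repair gene Apex2 (-0.45 ± 0.09), Arfgap1 (-0.31 ± 0.06), Tspyl2 (-0.22 ± 0.05), the bromodomain gene Brd8 (-0.22 ± 0.05) and the antisense RNA Ttc39aos1 (-0.46 ± 0.09), whose counts depend on the strand setting. Prr27 (-0.63 ± 0.14), Simc1 (-0.48 ± 0.11) and the cation pump gene Atp13a4 (-0.47 ± 0.11) fell as well. Of 84 cytosolic ribosomal protein genes, gathered after the values were seen, 0 rose and 2 fell, Rpl23a (-0.22 ± 0.05) and Rpl7a (-0.28 ± 0.06), with a median of -0.12. Processed copies of these genes in the genome make their counts uncertain.

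Genes of the duct epithelium were seldom called, where 1.97% of all genes tested were called. A count of 0 in lists of this size lies near that share. Of 9 principal cell, 24 initial segment, 21 caput, 32 beta-defensin, 13 lipocalin and RNase, 23 androgen response, 11 clear cell, 33 antioxidant, 12 basal cell and 19 junction genes, 0 were called in either direction, with list medians from -0.08 to 0.16. Crisp1, an abundant secreted protein gene of principal cells, held 14900 to 30500 CPM in KO and 22900 to 31600 CPM in HET, with a log2 fold change of -0.40 and an adjusted p of 0.174. The principal cell list stood at -0.32 to -0.06 in 4 KO libraries and at 0.12 in KO-738, against -0.08 to 0.09 in HET. Among the members with the smallest p were Defb22 of the defensins (-0.75 ± 0.19, adjusted p = 0.0576), Rnase11 (-0.39 ± 0.10, adjusted p = 0.0517), the proton pump gene Atp6v1c2 of clear cells (-0.50 ± 0.13, adjusted p = 0.0625) and the basal cell gene Dst (0.25 ± 0.06, adjusted p = 0.0523). Defb22 had 407, 251, 245 and 351 CPM in KO-694, KO-695, KO-696 and KO-739, below the lowest HET library at 470 CPM, and 541 CPM in KO-738, inside the HET range. Without KO-738, 8 of the beta-defensins were called lower and 1 higher, 5 of the caput genes lower and 0 higher, and 5 of the androgen response genes lower and 2 higher; in that fit 897 of 19539 genes were called lower and 1546 higher. A miss of the threshold does not show that these genes were alike. Wfdc1, a secreted protease inhibitor gene, was the 1 called member of 34 in the WFDC, SPINK, SPINT and cystatin families (0.47 ± 0.11). The median of that list was -0.11. Serpina3n was the 1 called member of 21 serpins (0.48 ± 0.11), a list with a median of 0.34.

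**Figure D4:**
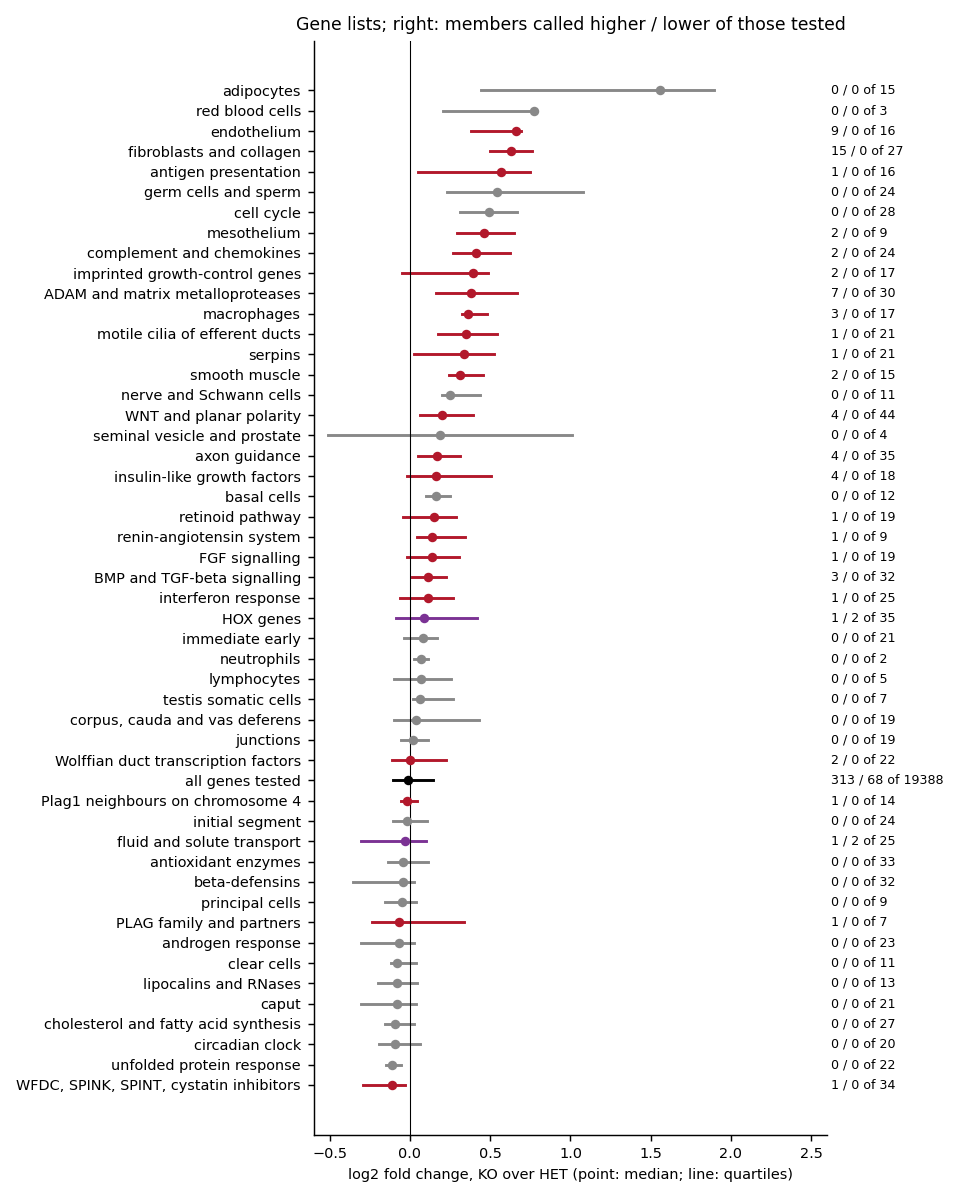
Each row is a gene list, with the point at its median log2 fold change of KO over HET, the line spanning its quartiles, and the members called higher, lower and tested at the right; red lists have rises only, purple ones rises and falls, grey ones neither, and black is all genes. Endothelium (9 of 16) and fibroblasts and collagen (15 of 27) lie at 0.66 and 0.63 against -0.01 for all genes, and skeletal muscle, with a median of 4.49, lies outside the axis and is not drawn.

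Markers of tissues beside or passing through the duct lay above all HET libraries in some KO libraries: skeletal muscle in 1 of 5, adipocytes in 3 of 5 and germ cells in 3 of 5. Skeletal muscle genes stood at 7.19 in KO-739 and at 0.03 to 0.40 in the other KO libraries, against -0.67 to 1.67 in HET. The troponin gene Tnnt3 had 729 CPM in KO-739 and 2.33 to 3.29 CPM in the other KO libraries, against 1.06 to 8.16 CPM in HET libraries. Of the 10 muscle genes 0 were called, with a median of 4.49 that was -0.26 without KO-739. Adipocyte genes stood at 1.07, 2.54, -0.24, 1.34 and 0.46 in KO libraries, against 0.93, 0.21, -0.78, -0.34 and -0.02 in HET libraries, and 0 of 15 were called, with a median of 1.56. The fat hormone gene Adipoq had 4.42, 17.9, 1.25, 4.30 and 2.15 CPM in KO libraries, against 3.03, 1.92, 0.600, 0.947 and 0.904 CPM in HET libraries (2.00 ± 0.68, adjusted p = 0.119). Without KO-695, its highest library, the value was 1.01 and the adipocyte median 0.80. Germ cell genes stood at 0.74, 0.82, 1.45, -0.54 and 0.04 in KO libraries, against 0.42, 0.03, -0.12, -0.17 and -0.15 in HET libraries, and 0 of 24 were called, with a median of 0.54 that was 0.22 without KO-696. The germ line helicase gene Ddx4 (1.61 ± 0.44, adjusted p = 0.0678) and the sperm lactate dehydrogenase gene Ldhc (1.48 ± 0.42, adjusted p = 0.0763) were highest in KO-696. Among 21 genes of motile cilia, found on cells of the efferent ducts, 1 rose, Tekt2 (1.01 ± 0.25). Of 28 cell cycle genes 0 were called, with a median of 0.49 and a level of 1.26 in KO-695 against at most 0.60 in HET.

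The lists of corpus, cauda and vas deferens (19 genes), lymphocytes (5), neutrophils (2), red blood cells (3), nerve and Schwann cells (11), testis somatic cells (7), seminal vesicle and prostate (4), immediate early genes (21), circadian clock (20), cholesterol and fatty acid synthesis (27) and the unfolded protein response (22) held 0 called genes each. The Leydig cell marker Insl3 and the Sertoli cell marker Amh held at most 0.0314 and 0.224 CPM in KO and 0.0 and 0.0589 CPM in HET. Other markers listed for these cells were present. Cyp17a1 held 21.8 to 55.7 CPM in KO and 46.1 to 72.1 CPM in HET, and Sox9 26.6 to 47.9 and 34.7 to 39.0 CPM. Star held 8.4 to 10.4 CPM in KO and 9.15 to 9.88 CPM in HET, and Cyp11a1 2.29 to 5.54 and 2.54 to 3.77 CPM. The part of such tissue in the results was not tested.

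The animal numbers split unevenly over the genotypes. The labels do not say what they mean, but 3 KO and 2 HET animals were numbered below 700, and 2 KO, 3 HET and all 5 WT animals 700 or above. Endothelium had a median of 0.59 below 700 and of 0.58 from 700, and fibroblasts and collagen had 0.67 and 0.55. Macrophages had 0.58 and 0.22, motile cilia 0.54 and 0.08, and germ cells 0.60 and -0.07. Among single genes, Cdh5 had 0.67 below 700 and 0.72 from 700, Tenm3 0.68 and 0.57, Aldh1a2 0.64 and 0.75, and Igf1 0.94 and 0.71. Other called genes lay further apart, among them Stab1 with 0.85 and 0.28, Flt4 with 0.90 and 0.35, Tekt2 with 1.28 and 0.36 and Art5 with 1.27 and 2.64. All were called in a fit that holds these same libraries, so the values in the ranges are no separate check of the calls. With the range as a term in the fit 361 genes were called, 267 higher and 94 lower. Within the ranges edgeR called 2 genes below 700 and 0 from 700, where 2750 and 2026 genes had an unadjusted p under 0.05.

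**Figure D5:**
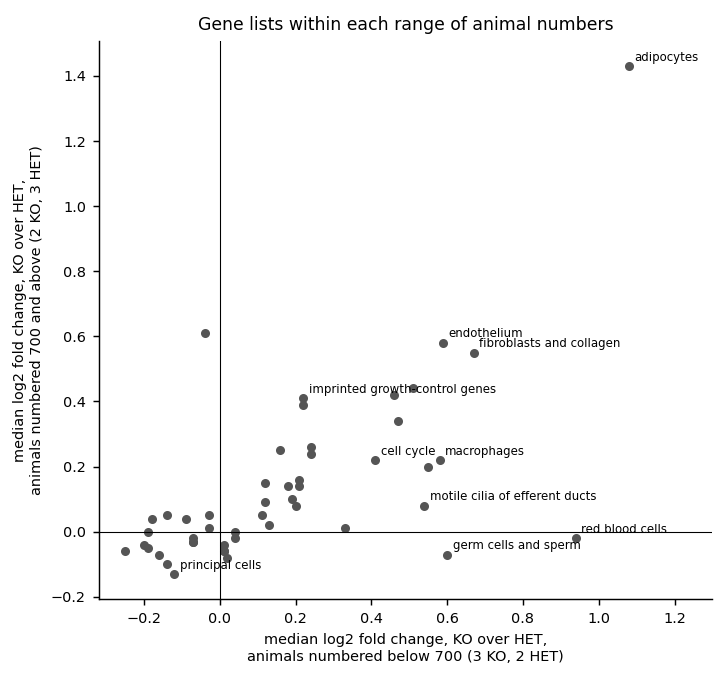
Each point is the median log2 fold change of KO over HET of 1 gene list, among animals numbered below 700 (3 KO, 2 HET) on the horizontal axis and 700 or above (2 KO, 3 HET) on the vertical axis; skeletal muscle is left out. Endothelium lies at 0.59 and 0.58 and fibroblasts and collagen at 0.67 and 0.55, while germ cells lie at 0.60 and -0.07 and motile cilia at 0.54 and 0.08.

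Levels in WT are given beside those of KO and HET as a description, since the comparisons share libraries. Cdh5 averaged 24.5 ± 3.90 CPM in KO, 15.3 ± 2.35 CPM in HET and 13.6 ± 0.985 CPM in WT (SD, n = 5 each). Igf1 averaged 58.6 ± 14.9 CPM in KO, 31.9 ± 3.52 CPM in HET and 25.6 ± 2.83 CPM in WT. Bglap3 averaged 59.1 ± 12.9 CPM in KO, 95.9 ± 7.35 CPM in HET and 97.6 ± 11.8 CPM in WT. Hoxb9 averaged 63.4 ± 7.02 CPM in KO, 78.2 ± 4.37 CPM in HET and 87.4 ± 5.58 CPM in WT. In the same fit KO against WT called 853 genes higher (4.4%) and 310 lower (1.6%), and edgeR called 0 genes in HET against WT, where 854 had an unadjusted p under 0.05. Some genes called in KO against HET had a small value in KO against WT, among them Kank2 (0.22, adjusted p = 0.0801), Fzd1 (0.14, adjusted p = 0.214), Ntn1 (0.12, adjusted p = 0.266) and Wnt6 (0.19, adjusted p = 0.35).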

How the data were processed

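Counts per gene from whole epididymis of 15 mice at 7 weeks of age, 5 per genotype, were analysed. Sperm were first rinsed out of the tissue, which had been pulled apart in saline, per the labels' protocols; RNA was extracted with TRIzol and treated with DNase, and libraries were made with the Illumina TruSeq Stranded mRNA kit. The submitters' processing notes name featureCounts (Subread 1.4.6p5), the aligner HISAT2 2.0.5, FastQC and build GRCm38.p6; the strand setting and annotation release are not given in the sources used here. The authors deposited raw counts per gene, not normalized.

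Of 41591 gene IDs, 40290 were named by RefSeq and 87 by GENCODE, and 1214 stayed unnamed. Counts of the 15 libraries entered 1 fit in edgeR 4.0.16 (R 4.3.3), with TMM factors, filterByExpr by genotype, robust quasi-likelihood tests of KO minus HET and Benjamini-Hochberg adjustment over 19388 genes at 0.05. Alternatives used DESeq2 1.42.0, limma 3.58.1 and sva 3.50.0, other scalings and filters, and fewer libraries; a fit weighting each genotype was added after seeing the data. In simulated data for this comparison (19177 genes), the fit recovered 58.5%, 88.7% and 98.6% of changes of 1.5-, 2- and 4-fold, with 2 false among 167 calls. The simulation changed 200 genes of at least 1 CPM and gave each gene the same spread in every genotype, with genes drawn independently. The real KO libraries varied more than the others and shifted many genes together, so these rates need not hold for the real data.

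Named were Plag1; among called genes with at least 1 CPM in KO or HET and an ordinary symbol, the 15 largest rises, the 15 largest falls and the 10 smallest p-values each way; up to 4 called members of each of 50 gene lists; and some members of lists without a call. Genes said to be named after their values were seen, type IV collagen, laminin, natriuretic peptide and vascular growth factor receptor genes, Pecam1, Tie1, Sparc, Igf2, Evx1, Acta2 and Myh11 fall outside that rule. The members and lists were chosen with earlier results of these data known. Replicates are separate animal numbers, and no label says that animals were litter mates or handled apart. Each p-value sets the difference between KO and HET against the spread within genotypes, pooled for each gene over the 15 libraries. That spread includes the WT libraries, although the KO libraries varied more than the others.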

Additional observations from a re-analysis of the deposited data

Results flagged for a closer look

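Among the 254 groups of 5 libraries examined for the genes named here, 17 (6.69%) held a library set apart from the other 4 by more than 0.71 of the group's range. Chance flags about 1 in 20 where groups are independent and normally distributed. The named genes were mostly chosen for a difference between KO and HET and shift together by library. The flags are therefore not independent, and nothing is read from their share. In 7 of the 17 flagged groups the library was KO-738. It held 10 CPM of Tenm3 against 12.2 to 12.9 in the other KO libraries, 1.22 CPM of Scube2 against 2.84 to 3.23, 32.5 CPM of Igf1 against 60.5 to 68.9, 2.32 CPM of Igf2bp2 against 5.02 to 5.46 and 17.2 CPM of Mpeg1 against 22.5 to 23.8. For genes that fell, KO-738 was the high library, with 7.31 CPM of Amdhd1 against 5.82 to 6.13 and 32.4 CPM of Baiap2l1 against 28.0 to 28.8. In all 7 it lay on the side of the HET mean.

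KO-739 stood apart with 236 CPM of Ctla2a against 22.1 to 81.1 in the other KO libraries, and with 729 CPM of Tnnt3 against 2.33 to 3.29. KO-695 stood apart with 11.8 CPM of Col5a3 against 5.93 to 7.59, 17.9 CPM of Adipoq against 1.25 to 4.42 and 34.1 CPM of Plxnd1 against 25.1 to 27.2. Among HET libraries, HET-692 held 5.80 CPM of Npr3 against 4.37 to 4.53, 19.2 CPM of Mmp2 against 12.6 to 14.4, 14.1 CPM of Ldhc against 5.86 to 7.86 and 123 CPM of Arfgap1 against 133 to 135, and HET-718 held 8.16 CPM of Tnnt3 against 1.06 to 2.11.

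Igf2 went opposite ways in the animal number ranges. Below 700 every KO library lay below every HET library (-0.52), and from 700 every KO library lay above every HET library (0.17), within a value of -0.22 in all libraries. The difference between the ranges was not tested.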

How the results depend on the processing

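The number of called genes was 381. It was 0 in the fit of the KO and HET libraries alone and among animals numbered 700 and above, and 2 among animals below 700, fits with fewer libraries. It was 1242 with DESeq2 (877 higher, 365 lower), 1909 with voom and quality weights (1067 higher, 842 lower) and 1660 without the libraries with over 1% ribosomal RNA (1013 higher, 647 lower); the cause was not tested. Leaving out 1 library gave 0 to 2443 calls, lowest without HET-735 and highest without KO-738. Other scalings, filters, the number range term, 1 surrogate variable and a weight per genotype gave 328 to 524, within 1.5 times. The higher share was 82.2%, and 55.9% with voom and quality weights. Of the 892 list genes tested 73 were called, with 158 for DESeq2, 216 for voom with quality weights, 200 without the libraries over 1% ribosomal RNA, 0 for KO and HET alone, 0 from 700, 1 below 700 and 0 to 249 on leaving out 1 library. Of the 126 named genes other than Plag1 114 were called, with 0 for KO and HET alone, 0 from 700, 2 below 700 and 0 to 123 on leaving out 1 library. The 381 genes kept their direction wherever an alternative tested them, but all alternatives use libraries by which the genes were called, so this is no separate check. Plag1 stayed between -0.40 and -0.11 and was not called under any alternative. Among named genes 2 reversed, both not called: Tnnt3 to -0.09 without KO-739 (up to 6.42, without HET-718) and Igf2 to 0.17 from 700. No paired analysis was possible because no animal number is shared between the genotypes. With 5 libraries a group, the simulated recovery of 58.5% at 1.5-fold limits what a missed call says. That simulation had the same spread in every genotype, unlike the real libraries.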
